A study of Mus musculus with 6 samples.

Results

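A set of 39 genes of sphingolipid and glucosylceramide metabolism was examined in poly(A) libraries made from the islets of 6 mice. The genes were listed by symbol from the known steps of the pathway, and all 39 were found among the 34245 genes of the deposited table. The 3 KO mice carried a floxed Abca12 allele that Rip1-Cre, a recombinase under the rat insulin promoter, had deleted (allele name tm1d). The 3 HET mice were controls heterozygous for the floxed allele. All 6 animals carried Rip1-Cre, were of the C57BL/6J strain and were 5 weeks old. The promoter is active in beta cells, so the deletion does not address alpha, delta, endothelial and other cells, whose RNA is also in the libraries.

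Sphingolipids are built on a sphingoid base, which serine palmitoyltransferase makes from serine and a fatty acyl-CoA in the endoplasmic reticulum. Ceramide synthases and a desaturase turn the base into ceramide, which the Golgi converts to sphingomyelin or glucosylceramide, and lysosomal enzymes return these to ceramide and sphingosine. ABCA12, best known from keratinocytes, loads glucosylceramide into lamellar granules, and the comparison asks whether genes of this pathway differ in islets whose beta cells lack it.

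No gene of the set passed the test between KO and HET islets. Of the 39 genes, 36 had a mean of at least 1 RPM, a read count scaled to the library total, and were tested with limma on log2(RPM + 1). None passed an adjusted p of 0.05, and neither did any other gene (0% of 14238, lowest adjusted p = 0.9998). None had an unadjusted p under 0.05 either, where 1.76% of all genes did. The means were higher in KO for 19 genes (52.8%) and lower for 17, against 51.4% and 48.6% of all genes. The median log2 difference was 0.02 over the 36 genes and 0.0075 over all genes. All 36 intervals included 0, and their half-widths ran from 0.36 to 1.12 log2 units, with a median of 0.47. Differences smaller than these widths were therefore not resolved by 3 animals a group.

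With the deposited values taken as RPM, the KO libraries totalled 27447026 to 29739290 reads, and the HET libraries 30934062 to 35511008. Abca12 had 2 reads in KO 1 and 0 in the other 5 libraries, so the deletion could not be checked from whole islets. The beta cell markers summed to 108400 to 141300 RPM over the KO libraries, against 109800 to 117300 RPM over the HET libraries, with none of 10 at 0. KO 2 held both Xist (459 RPM) and RNA of 4 Y-linked genes (99.8 RPM in sum), so whether KO 2 came from 1 animal is unclear. KO 1 and HET 2 held Xist and no reads of the Y-linked genes. KO 3, HET 1 and HET 3 held Y-linked RNA and at most 5 reads of Xist. Both genotypes, and both sides of the split by animal code described next, therefore mixed the sexes. Sex was not a term in any fit. Without KO 2 no gene passed, 20 of the 36 genes were higher in KO (51.9% of all genes were), and 3 had groups that did not overlap (8.33%, against 10.9% of all genes). The libraries also fell apart by animal code. KO 1, KO 2 and HET 1, the 3 lowest codes, lay on one side of the first principal component, which held 70.5% of the variance, and KO 3, HET 2 and HET 3, the 3 highest codes, on the other. They are called low codes and high codes here.

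**Figure D1:**
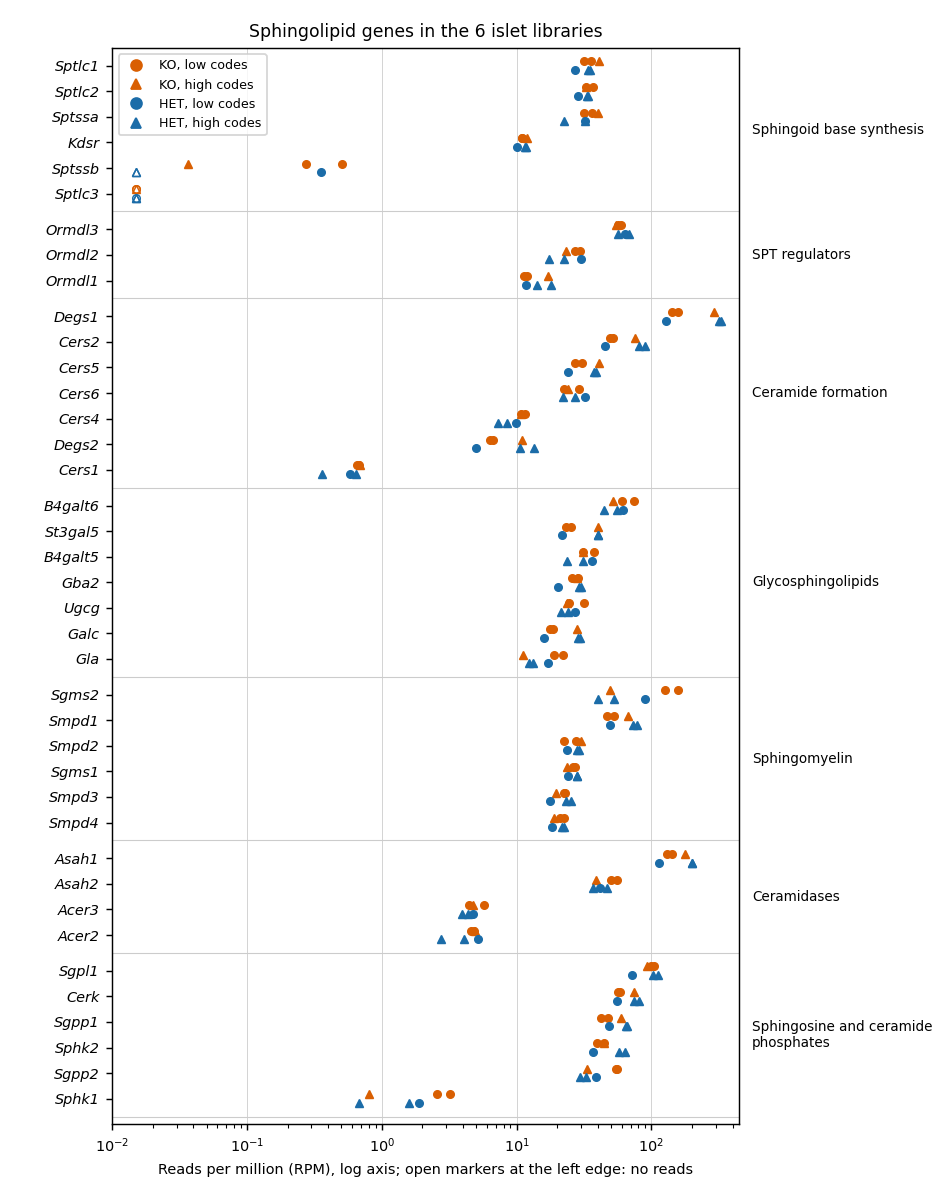
Level of each of the 39 genes in every library, in RPM on a log axis, grouped by step of the pathway. Each point is 1 library, KO above HET within a gene, circles for low codes and triangles for high codes; open markers at the left edge stand for no reads. For Degs1 the triangles lie at 293 to 327 RPM and the circles at 128 to 158 RPM, in both genotypes.

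Degs1, Galc, Gla and Sgpp2 are shown by their promoter windows, as examples of the 20 tested genes whose low and high codes did not overlap. Degs1 and Galc were lower and Gla and Sgpp2 higher in low codes. The examples were picked by hand, so matches among them are no measure of the 20 genes. Each window runs from 250 bases before to 50 bases after the RefSeq gene start (GRCm38.p6), 5′ to 3′ on the gene's own strand. Capitals mark CACGTG, the palindromic E-box core that lysosomal and MYC-family factors can bind, searched as these 6 letters, which read the same on both strands.
Degs1 (chr1:182282146-182282445, minus strand): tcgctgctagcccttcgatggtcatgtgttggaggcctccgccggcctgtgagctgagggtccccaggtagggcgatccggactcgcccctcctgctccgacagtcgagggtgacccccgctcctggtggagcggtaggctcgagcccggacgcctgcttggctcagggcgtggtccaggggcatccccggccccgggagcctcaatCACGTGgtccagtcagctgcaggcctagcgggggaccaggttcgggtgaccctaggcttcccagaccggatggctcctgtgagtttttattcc
Galc (chr12:98259410-98259709, minus strand): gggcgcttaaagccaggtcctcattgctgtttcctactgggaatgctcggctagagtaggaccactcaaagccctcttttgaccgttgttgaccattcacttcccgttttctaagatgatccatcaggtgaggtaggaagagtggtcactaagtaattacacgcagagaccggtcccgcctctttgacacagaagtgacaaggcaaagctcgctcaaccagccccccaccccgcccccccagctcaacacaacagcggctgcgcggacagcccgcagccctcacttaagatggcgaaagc
Gla (chrX:134600956-134601255, minus strand): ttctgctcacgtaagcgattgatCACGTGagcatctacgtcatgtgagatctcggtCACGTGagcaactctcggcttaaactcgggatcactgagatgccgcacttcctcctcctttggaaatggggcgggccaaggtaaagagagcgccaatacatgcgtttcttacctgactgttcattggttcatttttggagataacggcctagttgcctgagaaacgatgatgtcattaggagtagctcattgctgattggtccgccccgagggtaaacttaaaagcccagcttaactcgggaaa
Sgpp2 (chr1:78310096-78310395, plus strand): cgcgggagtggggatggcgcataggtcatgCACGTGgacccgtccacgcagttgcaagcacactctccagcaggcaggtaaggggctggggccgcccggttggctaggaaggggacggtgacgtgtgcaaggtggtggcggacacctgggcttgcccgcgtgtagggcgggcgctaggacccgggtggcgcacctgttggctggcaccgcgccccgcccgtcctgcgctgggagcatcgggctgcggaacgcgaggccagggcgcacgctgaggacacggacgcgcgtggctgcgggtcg
The letters begin 43 bases before the start in Degs1, 227 and 194 bases before it in Gla and 220 bases before it in Sgpp2, and are not in the Galc window. In the deposited gene positions Degs1 starts further upstream, at 182282804, so its whole window, with the letters, lies inside that gene span. Among the 36 of the 39 genes with a window, 8 had the letters in at least 1 window, a share of 22.2%. The share was 8.09% over all 27025 genes with a window, which include genes below the expression filter. Most genes of the set passed that filter, and the share among tested genes alone was not counted. No excess of the letters in the set can therefore be read from this gap. Of the 8 genes of the set, Gla, Sgms2, Sphk1 and Sgpp2 were higher in every low-code library than in any high-code library. Cers2, Degs1 and Smpd2 were lower in this way. The eighth, Cers6, overlapped. Over all tested genes 48.1% separated by code, and 20 of the 36 tested genes of the set did, so these counts are a description only. Sgms2 and Sphk1 have 6 and 5 windows, so they had more bases in which to match.

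Synthesis of the sphingoid base rested on a narrow set of subunits. Sptlc1, the common subunit of serine palmitoyltransferase, had 35.4, 31.8 and 40.6 RPM in KO 1 to 3 and 26.9, 34.7 and 33.6 RPM in HET 1 to 3. Sptlc2, its partner subunit, had 32.7, 36.7 and 32.6 RPM in KO and 28.4, 33.5 and 33.7 RPM in HET. Sptlc3, the alternative partner, had 0 reads in all 6 libraries, where 3 reads correspond to 0.101 to 0.109 RPM for KO libraries and 0.0845 to 0.0970 RPM for HET libraries. The small subunit Sptssa, which raises the enzyme's activity, had 36.5, 31.8 and 40.3 RPM in KO and 32.1, 22.4 and 32.0 RPM in HET. Its log2 difference of 0.33 (SE 0.20, 95% interval -0.13 to 0.79) did not pass (limma, adjusted p = 0.9998). HET 2 was the low library, and without it the difference was 0.16. Sptssb, the other small subunit, counted 8, 15 and 1 reads over KO 1 to 3, against 11, 0 and 0 reads over HET 1 to 3, and was higher in each low-code library than in any high-code one. Kdsr, which reduces the product of the transferase, averaged 11.3 ± 0.510 RPM in KO islets, against 11.04 ± 0.913 RPM in HET islets (SD, n = 3 each). All 4 tested genes of this step had a higher mean in KO, by 0.04 to 0.33 log2 units, and none passed.

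The ORMDL proteins, which restrain serine palmitoyltransferase when ceramide is plentiful, were led by Ormdl3. Ormdl3 had 59.1, 56.3 and 54.9 RPM in KO and 64.1, 56.0 and 67.9 RPM in HET, with overlapping groups (log2 difference -0.14, 95% interval -0.50 to 0.22). Ormdl2 and Ormdl1 differed by 0.21 (-0.31 to 0.73) and -0.11 (-0.65 to 0.42). Per kilobase of merged exon, Ormdl3 made up 58.0% ± 0.719 of the family in KO and 62.8% ± 3.59 in HET (SD, n = 3 each). Ormdl2 shares 66.7% of its exon bases with Dnajc14 (64.8 RPM) on the opposite strand. Its reads therefore cannot be assigned without strand information, and the family shares carry the same limit.

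Among the ceramide synthases, which join the base to a fatty acid, Cers2 for very long chains led and Cers5 for long chains followed. Per kilobase of merged exon, Cers2 held 54.4% ± 2.20 of the family in KO and 58.4% ± 5.72 in HET (SD, n = 3 each). Cers5 held 31.7% ± 1.65 in KO and 28.8% ± 0.288 in HET, and its 3 KO shares, the lowest 29.8%, lay above the 3 HET shares, the highest 29.1%. That gap is a description with no test. It was found on looking through the shares of all the isoenzyme families, and every other share by merged exon overlapped between genotypes. Cers2 had 52.0, 49.7 and 75.0 RPM in KO, against 45.5, 80.6 and 89.0 RPM in HET, and was higher in each high-code library than in any low-code one. Its log2 difference between genotypes was -0.25 (-0.92 to 0.42), and those of Cers5 and Cers6 were -0.02 (-0.58 to 0.55) and -0.09 (-0.54 to 0.37). Cers6 held 10.0% of the family in both groups, Cers4 3.16% in KO and 2.27% in HET, and Cers1 0.738% in KO and 0.543% in HET.

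Cers4, a synthase with a preference for long acyl chains, was the 1 tested gene of the set whose groups did not overlap. This was 2.78% of the 36, against 5.74% of all genes (4.2% with KO above). Cers4 (ENSMUSG00000008206.16, chromosome 8, 4493026 to 4531680, GRCm38) had 10.7, 11.6 and 10.8 RPM in KO and 9.92, 7.24 and 8.41 RPM in HET. KO averaged 11.05 ± 0.509 RPM, against 8.53 ± 1.35 RPM for HET (SD, n = 3 each). This gave a log2 difference of 0.35 (SE 0.18, 95% interval -0.07 to 0.77). It did not pass (limma, adjusted p = 0.9998). The groups overlapped once libraries were scaled by median of ratios or by upper quartile. Cers1, the stearoyl-chain synthase of nerve and muscle, was below the filter with 19, 20 and 19 reads in the KO libraries, against 18, 23 and 12 in the HET libraries. On the RPM scale its 3 KO values, from 0.651 RPM, lay just above the highest HET value of 0.648 RPM. With no filter its log2 difference was 0.13 (-0.19 to 0.46), and Cers1 shares 42.5% of its exon bases with Gdf1 on the same strand.

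Degs1, the desaturase that completes ceramide, was the most abundant gene of the set per kilobase. It separated by animal code, and its genotype difference did not pass. Degs1 (ENSMUSG00000038633.5, chromosome 1, 182275772 to 182282804) had 158, 143 and 293 RPM in KO 1 to 3 and 128, 327 and 316 RPM in HET 1 to 3. KO 3, HET 2 and HET 3 were high, and each genotype held both levels. The log2 difference between genotypes was -0.33 with an interval of -1.33 to 0.67, and with the side of the split as a term it was 0.05 (-0.29 to 0.38). Degs2, which also hydroxylates ceramide, was likewise higher in each high-code library than in any low-code one, with 6.68, 6.32 and 11.04 RPM in KO and 4.98, 10.6 and 13.5 RPM in HET. Its log2 difference between genotypes was -0.19 (-1.03 to 0.65). Degs1 held 96.0% ± 0.310 of the pair in KO and 96.3% ± 0.5001 in HET per kilobase (SD, n = 3 each), and the Degs2 share ran from 3.14% to 4.25% over the 6 libraries. Degs2 shares 10.8% of its exon bases with Evl (21.1 RPM) on the opposite strand. Reads there cannot be assigned without strand information, which limits the levels and shares of Degs2.

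Glucosylceramide, the lipid ABCA12 is known to carry, is made by Ugcg and removed outside the lysosome by Gba2. Ugcg had 24.5, 31.4 and 23.8 RPM in KO and 27.0, 24.2 and 21.4 RPM in HET, with overlapping groups and a log2 difference of 0.13 (SE 0.18, 95% interval -0.29 to 0.54). Gba2 had 28.5, 25.7 and 28.3 RPM in KO and 20.2, 30.3 and 29.0 RPM in HET, a difference of 0.07 (-0.38 to 0.52). Neither passed. The upper bound for Ugcg does not reach a change of 1 log2 unit, which holds for every tested gene of the set but Sgms2, Sphk1 and Sgpp2. Of the next enzymes, the lactosylceramide synthases, B4galt6 had 60.5, 74.9 and 51.9 RPM in KO, against 61.1, 55.1 and 44.5 RPM in HET. Its log2 difference of 0.21 (SE 0.20, 95% interval -0.26 to 0.68) did not pass (limma, adjusted p = 0.9998), nor did that of B4galt5, at 0.14 (-0.32 to 0.60). B4galt6 held 58.2% ± 2.40 of the pair in KO and 57.0% ± 1.28 in HET per kilobase (SD, n = 3 each). St3gal5, which adds sialic acid to lactosylceramide and so opens the ganglioside branch, had 23.4, 25.5 and 39.9 RPM in KO and 21.7, 40.2 and 40.4 RPM in HET. Like Degs1, it was high in the 3 high-code libraries of both genotypes.

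The lysosomal hydrolases Galc and Gla moved with animal code in opposite directions. Galc, which splits galactosylceramide, had 17.7, 18.7 and 27.9 RPM in KO and 16.1, 28.4 and 29.7 RPM in HET. Gla, the X-linked alpha-galactosidase lost in Fabry disease, had 22.1, 19.0 and 11.1 RPM in KO and 17.2, 12.4 and 13.2 RPM in HET. Galc was thus low and Gla high in KO 1, KO 2 and HET 1. Between genotypes they differed by -0.18 (-0.83 to 0.48) and 0.23 (-0.40 to 0.86), and neither passed.

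Sgms2, a sphingomyelin synthase of the Golgi and plasma membrane, had the largest genotype difference of the set and one of its widest spreads. Sgms2 (ENSMUSG00000050931.7, chromosome 3, 131318985 to 131491411) had 159, 127.004 and 49.2 RPM in KO 1 to 3 and 89.1, 52.7 and 40.0 RPM in HET 1 to 3. KO 1, KO 2 and HET 1 were the 3 highest libraries, and KO 3 lay between the HET values. KO averaged 112 ± 56.3 RPM, against 60.6 ± 25.5 RPM for HET (SD, n = 3 each). This gave a log2 difference of 0.79 (SE 0.48, 95% interval -0.33 to 1.91). It did not pass (limma, adjusted p = 0.9998). With the side as a term the difference was 0.38 (-0.03 to 0.80). Within the low codes, the 2 KO libraries exceeded HET 1 by 0.67, and within the high codes KO 3 exceeded the 2 HET libraries by 0.10. The difference was 1.29 without KO 3 and 0.46 without KO 1. Sgms1, the Golgi synthase, had 26.4, 27.0 and 23.7 RPM in KO and 24.1, 27.9 and 28.0 RPM in HET and was the steadiest tested gene, with 1.18-fold between the highest and the lowest library.

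Acid sphingomyelinase led the enzymes that release ceramide from sphingomyelin. Smpd1, its gene, held 57.2% ± 3.97 of the sphingomyelinase family in KO and 61.0% ± 2.81 in HET per kilobase (SD, n = 3 each). Smpd1 had 53.0, 47.0 and 67.4 RPM in KO and 48.9, 72.7 and 77.6 RPM in HET, again with the 3 high-code libraries on top (log2 difference -0.24, 95% interval -0.77 to 0.30). The neutral sphingomyelinases Smpd2, Smpd3 and Smpd4 differed by -0.02, -0.02 and 0.01, with no interval reaching beyond -0.45 or 0.41. Smpd2 shares 20.3% of its exon bases with Mical1 (2.98 RPM) on the opposite strand.

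Acid ceramidase, which frees sphingosine in the lysosome, was the second most abundant gene of the set per kilobase. Asah1 had 142, 130.2 and 179 RPM in KO and 113, 199 and 199 RPM in HET, for a log2 difference of -0.15 (-0.76 to 0.47). The neutral ceramidase Asah2 had 49.7, 55.6 and 39.09 RPM in KO and 41.6, 46.5 and 37.0 RPM in HET, a difference of 0.19 (SE 0.19, 95% interval -0.24 to 0.63). The alkaline ceramidases Acer2 and Acer3 lay at 2.76 to 5.72 RPM and differed by 0.23 (-0.29 to 0.76) and 0.15 (-0.28 to 0.58). Asah1 held 89.4% ± 2.78 of the 4 ceramidases in KO and 91.4% ± 3.08 in HET per kilobase (SD, n = 3 each).

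Sgpp2, a phosphatase that returns sphingosine 1-phosphate to sphingosine, had the lowest p of the set. Sgpp2 (ENSMUSG00000032908.9, chromosome 1, 78310345 to 78420289) had 54.8, 55.7 and 33.0 RPM in KO 1 to 3 and 39.02, 32.6 and 29.3 RPM in HET 1 to 3. KO 3 lay below HET 1, so the groups overlapped. KO averaged 47.8 ± 12.8 RPM, against 33.6 ± 4.94 RPM for HET (SD, n = 3 each). This gave a log2 difference of 0.47 (SE 0.24, 95% interval -0.09 to 1.02). It did not pass (limma, adjusted p = 0.9998). KO exceeded HET by 0.49 within the low codes and by 0.09 within the high codes. Its relative Sgpp1 had 42.2, 47.8 and 59.2 RPM in KO and 48.7, 65.9 and 65.1 RPM in HET, a difference of -0.26 (SE 0.20, 95% interval -0.73 to 0.20). Sgpp2 held 57.0% ± 11.3 of the pair in KO and 44.3% ± 7.65 in HET per kilobase of merged exon (SD, n = 3 each). By length of the longest transcript these shares were 44.2% in KO and 32.1% in HET, so which of the pair leads depends on the length used. Sgpp2 shares 6.2% of its exon bases with Farsb (38.7 RPM) on the opposite strand.

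The other genes of sphingosine and ceramide phosphates showed no genotype difference that passed. Sphk2, the main sphingosine kinase here, had 44.8, 39.7 and 44.7 RPM in KO and 36.7, 57.4 and 63.6 RPM in HET, for a log2 difference of -0.25 (SE 0.23, 95% interval -0.77 to 0.28). HET 1 was the lowest library of all and HET 2 and HET 3 the highest. Sphk1, the kinase induced by growth factors, had 75, 95 and 22 reads over KO 1 to 3, against 58, 24 and 53 over HET 1 to 3, and its difference of 0.37 had an interval of -0.48 to 1.22. Sphk2 shares exon bases with Dbp (13.0%) and Rpl18 (9.0%) on the opposite strand. Sgpl1, the lyase that ends the pathway, had 99.8, 104 and 92.5 RPM in KO and 71.3, 112 and 103 RPM in HET (log2 difference 0.07, 95% interval -0.41 to 0.56). Cerk, ceramide kinase, differed by -0.15 (-0.62 to 0.32).

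**Figure D2:**
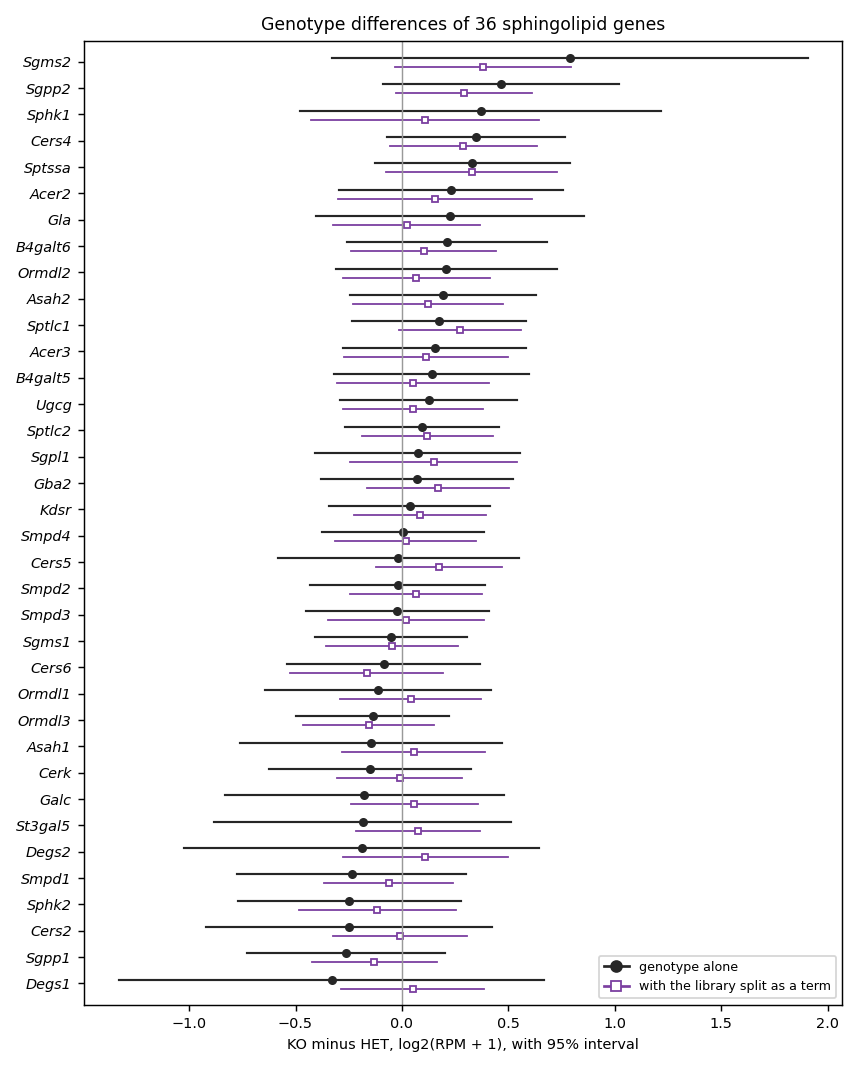
KO minus HET difference of the 36 tested genes on the log2(RPM + 1) scale, sorted by size, with 95% intervals from limma. Black circles are the fit with genotype alone and open purple squares the fit with the side of the library split as a term; every interval of both fits includes 0.

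Levels could be compared between genes once divided by length. In RPM per kilobase of merged exon, averaged over all 6 libraries (SD, n = 6), Degs1 came first within the set at 87.7 ± 36.1. Asah1 followed at 47.3 ± 10.9. Ormdl3 stood at 27.3 ± 2.37, Sptssa at 21.4 ± 3.95, Smpd1 at 18.3 ± 3.93 and Cers2 at 17.8 ± 5.02. Sptssa, Smpd1 and Cers2 lay within their spread of one another. By length of the longest transcript Cers2, at 29.5, stood next after Asah1, ahead of Ormdl3. The enzymes of glucosylceramide itself lay lower, Gba2 at 6.02 ± 0.817 and Ugcg at 4.87 ± 0.660. Of the 39 genes, 28 had a mean of at least 20 RPM.

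**Figure D3:**
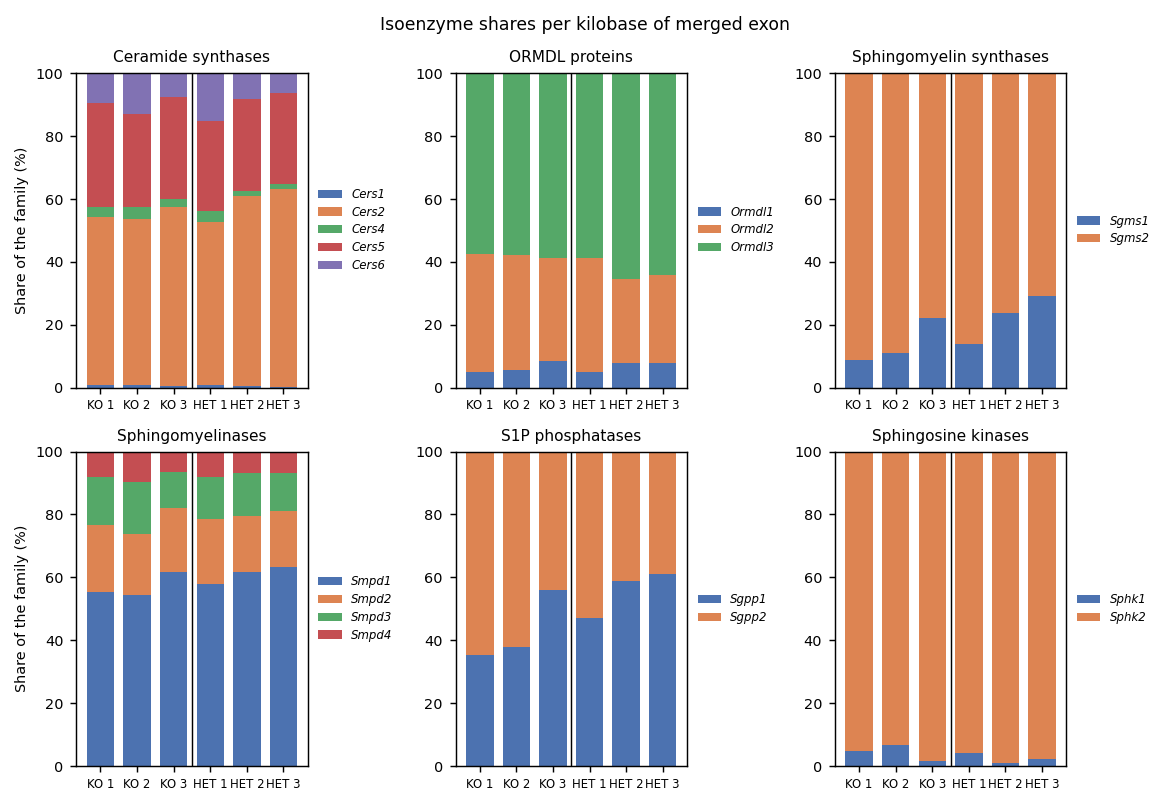
Share of each isoenzyme in the summed RPM per kilobase of merged exon of its family, in percent, with the KO libraries left of the line and the HET libraries right of it. The Sgms2 share lies between 86.2% and 91.1% in KO 1, KO 2 and HET 1 and between 70.7% and 77.8% in KO 3, HET 2 and HET 3.

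The sides were defined by the main axis of variation of these same libraries, so a wide separation between them was built in, and the values here are a description. For 20 of the 36 genes (55.6%) the 3 low-code libraries did not overlap the 3 high-code libraries, against 48.1% of all genes. The low codes lay above the high codes for 7 of them (19.4% of 36), against 16.8% of all genes, and below for 13 (36.1%), against 31.3%. The shares carry no test. Of the 36 genes, 31 differed more between the sides than between the genotypes (86.1%), as did 77.6% of all genes. The side differences, low minus high codes on the log2(RPM + 1) scale, ran from -1.12 for Degs1 to 1.35 for Sgms2.

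With the side as a term all 36 intervals narrowed, to a median half-width of 0.33, and none of the 36 passed (limma, lowest adjusted p = 0.928). No other gene passed either, with a lowest limma adjusted p of 0.0965 over all genes tested. None of the 36 had an unadjusted p under 0.05 there, against 5.39% of all genes (3.67% higher and 1.72% lower in KO). The genes with a higher estimate in KO numbered 28 of 36 (77.8%), against 60.1% of all genes, with differences from -0.17 to 0.38. Sptlc1 had the lowest p in that fit, with a difference of 0.27 (-0.01 to 0.56). KO was higher than HET within the low codes for 30 of the 36 genes (83.3%, against 64.9% of all genes) and within the high codes for 15 (41.7%, against 50% of all genes). The low-code comparison rests on HET 1 alone, the library with the highest acinar share (5.66% of reads in listed genes), and the high-code one on KO 3 alone, so neither count can be read as a trait of these genes. The sign was the same on both sides for 15 genes (44.8% of all genes), 12 of them higher and 3 lower in KO.

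**Figure D4:**
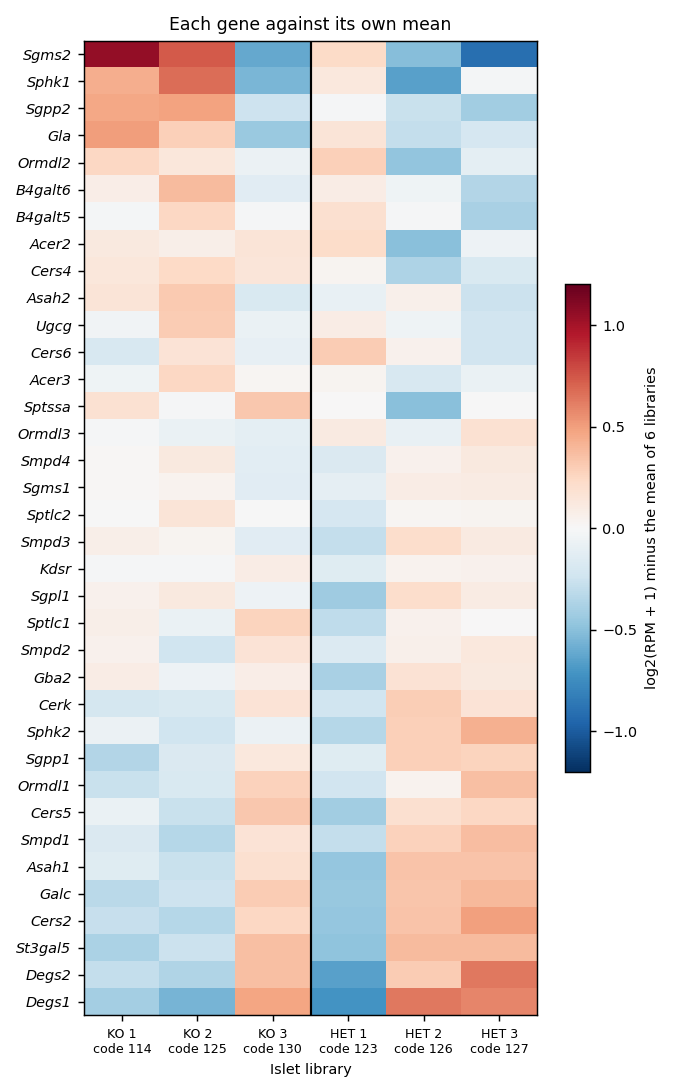
Each of the 36 tested genes in each library as log2(RPM + 1) minus its mean over the 6 libraries, from blue (lower) to red (higher), ordered by low minus high code difference. KO libraries are left of the line and HET libraries right of it; the low and high codes do not overlap for 20 of the 36 genes, mostly towards the top and bottom of the map, and the sorting itself sets the order of the colours.

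The summed markers of several other cell types also separated by animal code. Acinar markers summed to 4084 to 37260 RPM in the low codes and 509 to 1034 RPM in the high codes, and 16 of 17 were higher in every low-code library. By genotype their sums spanned 1034 to 15360 RPM over the KO libraries, against 509 to 37260 RPM over the HET libraries. With the acinar share of reads as a term, 2 of the 36 genes had an unadjusted p under 0.05, Cers4 and Sgpp2, both higher in KO (5.56%, against 6.88% of all genes). None of the 36 passed there (limma, lowest adjusted p = 0.703). Stellate and fibroblast markers summed to 81.9 to 156 RPM in the low codes and 37.6 to 48.8 RPM in the high codes (3 of 8 higher throughout, 1 lower). Alpha cell markers summed to 10950 to 16440 RPM in the low codes and 17040 to 30830 RPM in the high codes (3 of 6 lower throughout), and delta and PP cell markers to 2139 to 2696 RPM and 2978 to 3997 RPM (3 of 5 lower throughout). Macrophage markers summed to 93.3 to 121 RPM in the low codes and 125.5 to 136 RPM in the high codes. Against that sum, 4 of 8 were higher in every low-code library, and 2 were lower. Duct markers summed to 616 to 659 RPM in the low codes and 707 to 877 RPM in the high codes. Of these too, 4 of 8 were higher in every low-code library and 1 was lower. In both lists the sum thus went against most markers that separated. The sums overlapped for endothelial markers, at 213 to 265 RPM in the low codes and 213 to 238 RPM in the high codes, and for Schwann cell markers, at 42.2 to 84.1 RPM in the low codes and 61.3 to 69.4 RPM in the high codes. No marker of these lists was at 0 in all libraries. The part of these cells in the side differences was not tested, and in whole islets fewer cells of a type cannot be told apart from less RNA per cell.

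A wider list of 46 sphingolipid genes gave the same absence of calls. None of the 35 with a mean of at least 1 RPM passed the adjusted threshold, 9 were higher and 26 lower in KO (74.3%, against 48.6% of all genes), and with the side as a term 18 were higher and 17 lower. The single gene with an unadjusted p under 0.05 (2.86%, against 1.76% of all genes) was Mfsd2b, a sphingosine 1-phosphate exporter of red blood cells and platelets. Mfsd2b had 1.54, 1.45 and 1.60 RPM in KO and 1.29, 0.338 and 0.543 RPM in HET, which did not overlap. Its log2 difference was 0.59 (SE 0.24, 95% interval 0.02 to 1.16) and did not pass (limma, adjusted p = 0.9998). With the side as a term 4 of the 35 had an unadjusted p under 0.05 (11.4%, against 5.39% of all genes), Mfsd2b, Gm2a and S1pr3 with higher and B4galnt1 with lower estimates in KO. With the acinar share as a term there were also 4 (11.4%, against 6.88%), Mfsd2b and Col4a3bp higher and B4galnt1 and Neu1 lower. None passed in either fit (lowest adjusted p = 0.825 and 0.607). Apart from Mfsd2b and Col4a3bp these genes were named after their values were seen. Col4a3bp, which encodes the ceramide transfer protein CERT, had 61.2, 74.9 and 54.1 RPM in KO and 57.3, 47.8 and 43.5 RPM in HET (log2 difference 0.35, 95% interval -0.10 to 0.79). Gltp, a glycolipid transfer protein, differed by -0.22 (-0.69 to 0.24).

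The wider list held 10 genes for the breakdown of glycosphingolipids. Of these, 7 were lower in every low-code library than in any high-code one and none was higher, against 31.3% and 16.8% of all genes, with no test. Galc and Gla belong to the set and not to the 10, and Galc was lower and Gla higher in this way. Between genotypes 1 of the 10 had a higher and 9 a lower mean in KO, where 48.6% of all genes had a lower one, and none passed. With the side as a term 6 were higher and 4 lower.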

How the data were processed

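Poly(A) libraries of islet RNA from 3 KO and 3 HET mice were compared, grouped by the labelled genotype. Replicate numbers follow the order of the records and pair nothing. The submitters' processing notes name HISAT2, DESeq2 and GRCm38 without version or role. The strandedness of counting is not stated in them or in the labels. The authors deposited log2 values per gene and library, with group averages, a log2 difference and a fold change (ratio) of HET over KO, the opposite of the direction used here. Genes without reads share the lowest value of a library. With that value as 0.9 read, whole reads (tolerance 0.01) came out for 100% of 93649 values below 1000 reads. They would come out under any scale of a library, so the unit was taken as log2 RPM and not tested. The library totals given here rest on that unit. limma-voom on the recovered reads, an alternative, called 0 genes.

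limma 3.58.1 (R 4.3.3, trend and robust) was fitted to log2(RPM + 1) of 14238 genes averaging 1 RPM or more, with Benjamini-Hochberg adjustment over all of them; the fit was tested on simulated data. This scale understates changes of genes with few reads. Lengths and overlaps came from GENCODE M21. Positions were identical for 85.9% of genes; Asah2 was matched by symbol and overlap. Read floors cover counting error only.

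The genes, lists, split and alternatives were chosen with earlier results of these data known. Genes with an unadjusted p under 0.05, with groups that do not overlap or among the 8 lowest p were given in full. Of the wider list, genes with an unadjusted p under 0.05, Col4a3bp and Gltp were named; another gene of the rule is not reported here. The deposited sheet of 3 genes was not used here. Figures were drawn with matplotlib 3.10.9.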

Additional observations from a re-analysis of the deposited data

How the results depend on the processing

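No gene of the pathway, and no gene of the table, passed the adjusted threshold under any of the 14 alternatives tried: other scaling factors, filters and pseudocount, limma-voom, the side or the acinar share as a term, and leaving out each library. The count of the 36 genes with an unadjusted limma p under 0.05 was 0 and became 2 with the acinar share as a term (Cers4 and Sgpp2). Leaving out 1 library gave 0 to 4. Without KO 3 these were Gla, Sgms2, Sgpp2 and Sphk1, and without HET 1 they were Cers2, Cers4, Degs1 and Sphk2 (lowest adjusted p = 0.705 and 0.396). The count whose groups do not overlap was 1. It was 0 with median-of-ratios and with upper quartile scaling, 2 with no filter on low values and 1 to 16 when a library was left out, 16 without HET 1 (44.4%, against 33.1% of all genes), 7 without KO 3 (19.4%, against 23.4%), 3 without KO 2 (8.33%, against 10.9%) and 2 without HET 2 (5.56%, against 9.05%); smaller groups overlap less by construction. Over all genes, those with an unadjusted p under 0.05 numbered 250, and ranged from 84 to 1702 when a library was left out (1702 without HET 1, 939 without KO 3). They numbered 564 with no filter, 157 with a mean of at least 5 RPM, 767 with the side and 980 with the acinar share as a term. Single genes kept their sign in 467 fits under these alternatives. In 34 the sign changed with both intervals including 0. No paired analysis was possible because the labels give each mouse its own code and no number shared between groups. Totals of 27447026 to 35511008 reads limit the genes below 1 RPM.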

Other observations

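Among genes of the wider list named after their values were seen were the sialyltransferases St8sia5 and St8sia1, which extend gangliosides. Both were lower in every low-code library than in any high-code one. St8sia5 had 12.3, 11.1 and 22.3 RPM in KO 1 to 3 and 8.21, 34.2 and 34.0 RPM in HET 1 to 3. St8sia1 had 9.08, 12.7 and 14.6 RPM in KO and 6.53, 27.6 and 21.7 RPM in HET, so its sides came close between KO 2 and KO 3. In both genes KO 3 was the highest KO library and lay below HET 2 and HET 3. Their log2 differences between genotypes were -0.53 (95% interval -1.83 to 0.77) and -0.39 (-1.53 to 0.75), and -0.06 and -0.03 with the side as a term.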
